A study of Helianthus annuus with 15 samples.

Results

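Flowers are built from organs that other parts of a plant lack, namely sepals or pappus, petals, stamens with their pollen, and carpels with their ovules. In sunflower (Helianthus annuus) they are packed in a head, a composite of ray florets at the rim and disc florets inside it. Many plant genes are transcribed in 1 of these organs and scarcely anywhere else in the plant, with anthers and pollen known as a rich source of such genes.

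The genes described here are those with a mean of at least 10 FPKM over the 3 flower libraries and under 1 FPKM in each of the 12 libraries of root, stem, leaf and axil. FPKM counts the fragments or reads of a gene per kilobase of its length, divided by the size of the library, so levels can be set side by side between genes. The rule took 104 of the 57688 identifiers that start with HannXRQ_Chr (0.18%), in a table of 63411 identifiers in all. These FPKM values chose the genes, so the contrast of flower with the other tissues is given as a description and was not tested. The same rule applied to the other tissues took 229 genes in root, 11 in stem, 49 in leaf and 11 in axil.

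RNA was sequenced from flower, root, stem, leaf and axil of sunflower, each tissue as 3 libraries, for a total of 15. An axil is where a leaf joins the stem. The labels give the tissue alone, with no cultivar, age, stage or growth condition, and do not say which part of the head was taken or whether separate plants were used for the libraries of 1 tissue. Spread between libraries may therefore be technical. In RNA from whole tissue, fewer cells of a type and less RNA per cell cannot be told apart. Marker genes of flower could not be looked up, because the table pairs none of these 104 identifiers with a gene name and the reference gene table matched 0 identifiers. No function is therefore given to any of them, and they are called by identifier, in which Chr17 stands for chromosome 17.

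Library totals of 12087704 to 14732362 reads were solved from the steps in the FPKM values, and 3 reads on a gene of 1000 nt are worth 0.204 to 0.248 FPKM at that depth. These limits cover counting error only. Over all genes Flower 1 did not stand apart from the other flower libraries, whereas Leaf 2 differed more from Leaf 1 and Leaf 3 than these did from each other (chi-square over its degrees of freedom of 52.7 and 66.1, against 17.2). Flower 1 and Leaf 2 shared 8 genes, sought only among HannXRQ_Chr identifiers that met the rule once Leaf 2 was left out. Other genes that these libraries may share were not searched for. The 8 genes reached 32.6 to 374.7 FPKM in Flower 1 and 14.5 to 511 FPKM in Leaf 2. They had at most 0.569 FPKM in Flower 2 or Flower 3. The rule kept these 8 out because of Leaf 2. No gene among the 104 (0) had at least 10 FPKM in Flower 1 with under 1 FPKM in both other flower libraries, and the rule applied without Flower 1 and Leaf 2 took 109 genes.

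The levels in flower spanned a wide range and were dominated by a single gene. Of the 104 genes, 1 had a mean above 1000 FPKM, 15 lay between 100 and 1000, 7 between 50 and 100, 30 between 20 and 50, and 51 between 10 and 20. The median of the flower means was 20.6 FPKM. Together the 104 genes took 1.10% of the reads of Flower 1, 1.04% of Flower 2 and 1.07% of Flower 3. The 3 genes with the most reads held 47.5% of them.

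**Figure D1:**
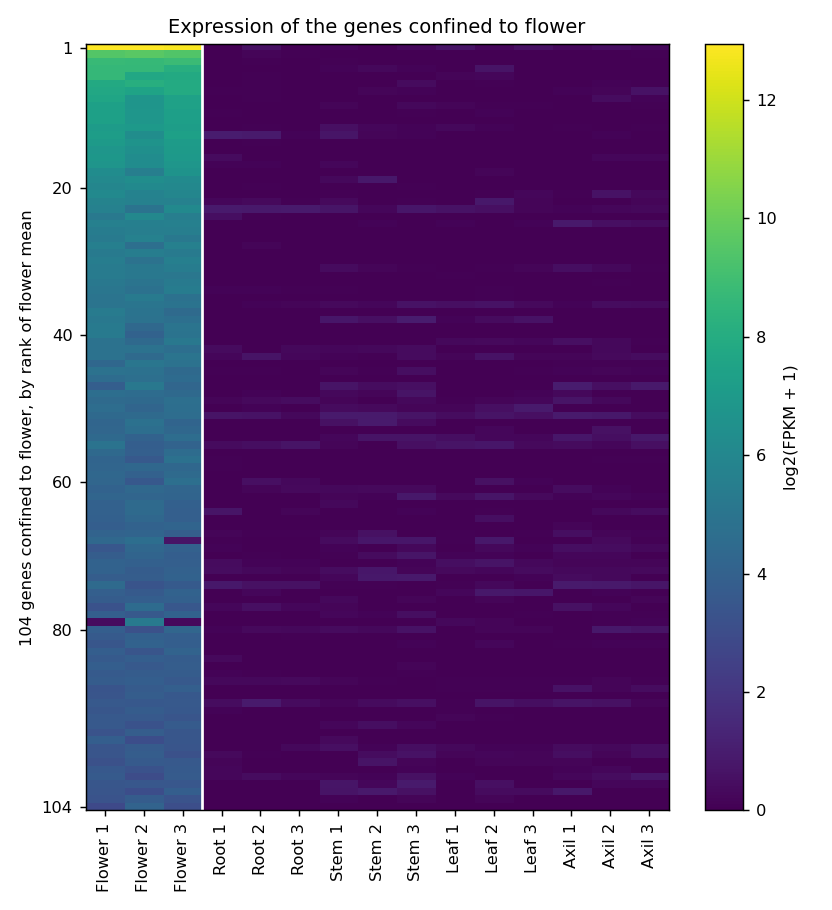
Heat map of log2(FPKM + 1) for the 104 genes confined to flower (rows, ranked by flower mean) in the 15 libraries (columns), with the 3 flower libraries left of the white line. The top row, at 7211 to 7869 FPKM, stands far above the rest, and dark cells among the flower columns mark 2 genes that were under 1 FPKM in a flower library.

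HannXRQ_Chr17g0559971 on chromosome 17 was the highest, at 7869 FPKM in Flower 1, 7654 in Flower 2 and 7211 in Flower 3. It stood at 0, 0.513 and 0 FPKM in Root 1, 2 and 3, at 0.175, 0 and 0.203 in Stem 1, 2 and 3, at 0.60, 0.190 and 0.509 in Leaf 1, 2 and 3, and at 0.192, 0.411 and 0.205 in Axil 1, 2 and 3. The flower libraries had a coefficient of variation (CV, the SD as a percentage of the mean) of 4.43%. Flower held 126270 reads of this gene and the other 12 libraries 16, at least 1 of them in each of the other tissues. Its length implied by the steps is 402 nt, the shortest among the 12 highest genes.

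The next 2 genes by level were also steady across flower and close to the detection limit outside it. HannXRQ_Chr12g0358561 on chromosome 12 was at 710.3, 795 and 687 FPKM in Flower 1, 2 and 3, a CV of 7.73%. It was at 0 in 9 of the other 12 libraries, with 0.114 FPKM in Root 2 as the highest value there. HannXRQ_Chr02g0045511 on chromosome 2 was at 415, 412 and 453 FPKM in Flower 1, 2 and 3, a CV of 5.40%, and it had 2 reads in the other 12 libraries, 1 in Root 2 and 1 in Stem 1.

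The 2 genes after them differed more between flower libraries. HannXRQ_Chr01g0024471 on chromosome 1 was at 398, 394 and 275 FPKM in Flower 1, 2 and 3, with Flower 3 as the low library. HannXRQ_Chr06g0164111 on chromosome 6 was at 397, 216 and 231 FPKM in Flower 1, 2 and 3, with Flower 1 as the high library. The highest value elsewhere was in Leaf 2 for both, at 0.60 and 0.183 FPKM in that order.

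The remaining 7 of the 12 highest genes had flower means between 135 and 249 FPKM, and none was above 0.570 FPKM in another library. HannXRQ_Chr04g0117241 and HannXRQ_Chr15g0475811 had the longest implied lengths of the 12, 2888 and 2884 nt. They stood at 249 ± 24.7 and 213 ± 30.1 FPKM in flower (SD, n = 3 each). HannXRQ_Chr14g0451151 stood at 135 ± 10.5 FPKM (SD, n = 3) in flower. The other 4, HannXRQ_Chr09g0273611, HannXRQ_Chr08g0214821, HannXRQ_Chr01g0002201 and HannXRQ_Chr06g0184571, had means of 142 to 158 FPKM in flower. In each of these 4, Flower 2 was the lowest flower library, at 107 to 110.4 FPKM, against 155 to 196 FPKM in Flower 1 and Flower 3.

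**Figure D2:**
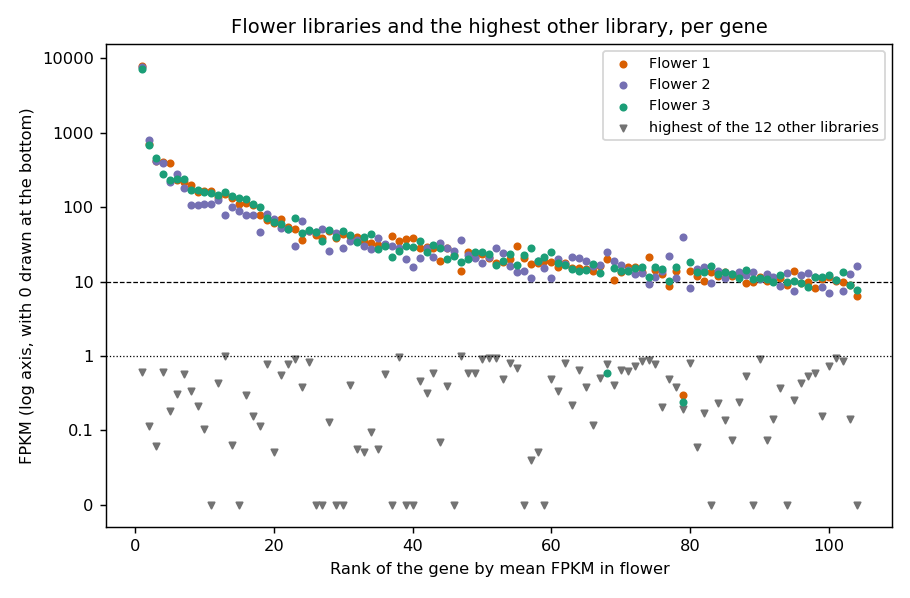
FPKM (log axis) of the 104 genes in each flower library and in the highest of the 12 other libraries, by rank of the flower mean, with dashed and dotted lines at the 10 and 1 FPKM of the rule and values of 0 drawn at the bottom. Most genes keep a wide gap between the flower points and the triangle, and 16 triangles lie at 0.

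Genes lay near each threshold on both sides. Just inside the lower limit in flower were HannXRQ_Chr10g0314911 (mean 10.1 FPKM), HannXRQ_Chr05g0156311 (10.2), HannXRQ_Chr14g0437251 (10.2) and HannXRQ_Chr02g0032081 (10.3). Just outside it were HannXRQ_Chr10g0309501 (9.43) and HannXRQ_Chr08g0220711 (9.40). At the upper limit elsewhere, HannXRQ_Chr17g0570241 was inside with 0.997 FPKM in Axil 1, whereas HannXRQ_Chr09g0266681 was outside with 1.02 FPKM in the same library. HannXRQ_Chr12g0361321, at 134 FPKM in flower, was outside because of 1.03 FPKM in Root 3. Of all 11471 HannXRQ_Chr identifiers with at least 10 FPKM in flower, the 104 make up 0.907%, a further 56 reached 1 to 2 FPKM in their highest other library, 510 reached 2 to 10 FPKM, and 10801 reached 10 FPKM or more.

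Outside flower the 104 genes left almost no reads, and what they left was spread over all other tissues. Summed over the genes and scaled to 1000000 reads of the library (RPM), flower held 11042, 10435 and 10703 RPM in Flower 1, 2 and 3. The other 12 libraries held between 7.93 RPM, in Root 3, and 19.4, in Stem 3. By tissue, 457 reads fell in root, 601 in stem, 495 in leaf and 567 in axil, which is 11.7, 15.5, 12.3 and 15.2 RPM. The ranges of the 3 libraries overlapped between all of these tissues except axil with root, where the lowest axil library had 14.6 RPM and the highest root library 14.2 RPM. The rule caps these values, so their split over tissues is a description. Reads of at least 1 library of the tissue were found for 55 genes in root, 62 in stem, 61 in leaf and 59 in axil.

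**Figure D3:**
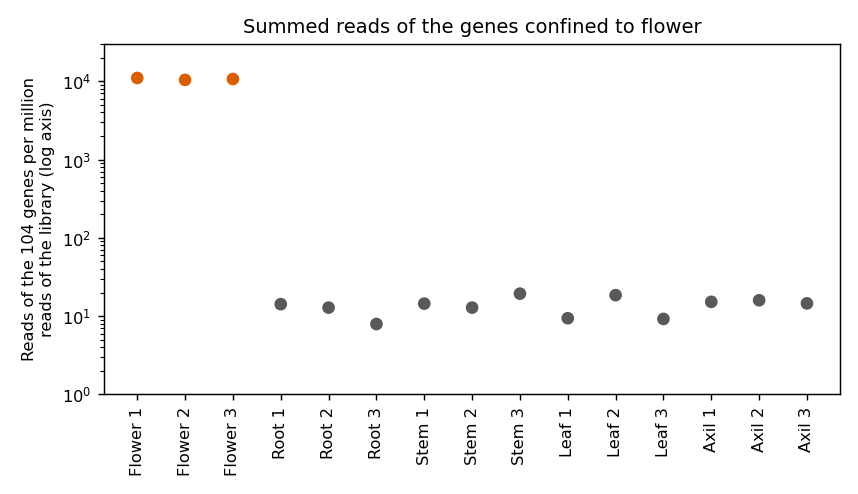
Summed reads of the 104 genes in RPM (log axis), 1 point per library, flower in orange at the left. The flower libraries lie at 10435 to 11042 and the other 12 at 7.93 to 19.4.

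Reads outside flower came from genes of high and of low flower level. The gene with 7578 FPKM in flower left 16 reads in the other 12 libraries, and 42 genes with lower flower levels left more. Longer genes collect more reads at the same level, so these counts do not rank levels. On the implied 402 nt of that gene, the 16 reads amount to 0.257 FPKM pooled over the 12 libraries. The 3 genes with the most reads elsewhere, chosen after their values were seen, held 21.4% of all 2120.

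These were HannXRQ_Chr15g0488511 with 164 reads (0.489 FPKM pooled over the 12 libraries), HannXRQ_Chr12g0371711 with 148 (0.605) and HannXRQ_Chr10g0284521 with 141 (0.187). HannXRQ_Chr15g0488511 was at 50.3, 29.9 and 70.2 FPKM in Flower 1, 2 and 3, against 0.918, 0.827 and 0.898 FPKM in Root 1, 2 and 3. It was at 0.685, 0.188 and 0.716 FPKM in Stem 1, 2 and 3, at 0.558, 0.424 and 0.126 in Leaf 1, 2 and 3, and at 0.107, 0.191 and 0.228 in Axil 1, 2 and 3. Each root library was above the other 9 libraries outside flower, and the axil libraries were at most 0.228 FPKM. HannXRQ_Chr10g0284521, the longest of the 104 at an implied 4868 nt, was at 15.7, 14.4 and 13.9 FPKM in Flower 1, 2 and 3, against at most 0.627 FPKM elsewhere, in Leaf 2.

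Genes close to the limit of 1 FPKM differed in the tissue that held their residual level. HannXRQ_Chr17g0570241 was at 13.8, 35.7 and 18.5 FPKM in Flower 1, 2 and 3. It was at 0.997, 0.466 and 0.861 FPKM in Axil 1, 2 and 3 and at 0.625, 0.328 and 0.459 in Stem 1, 2 and 3, with no read in the 6 root and leaf libraries. HannXRQ_Chr04g0125121 was at 148, 79.3 and 162 FPKM in Flower 1, 2 and 3, and reached 0.987 and 0.946 FPKM in Root 1 and Root 2 with 0.0742 in Root 3. It was at 0.647, 0.149 and 0.0747 FPKM in Stem 1, 2 and 3, with no read in leaf. HannXRQ_Chr11g0341931 was at 34.7, 28.2 and 25.7 FPKM in Flower 1, 2 and 3, and was detected in the stem libraries, at 0.749, 0.432 and 0.974 FPKM, and in the leaf libraries, at 0.107, 0.304 and 0.544, but in no root or axil library. The highest other library was a stem library for 30 genes, a root library for 20, an axil library for 20 and a leaf library for 18. Of these genes, 17 had only 1 to 3 reads outside flower. The same split over other genes was not computed, so it does not rank the tissues.

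No read was found outside flower for 16 genes. The 4 highest of them were HannXRQ_Chr06g0184571, HannXRQ_Chr15g0475011, HannXRQ_Chr02g0034671 and HannXRQ_Chr02g0031411. HannXRQ_Chr06g0184571 was at 163, 109 and 155 FPKM in Flower 1, 2 and 3. HannXRQ_Chr15g0475011 was at 109, 87.2 and 132 FPKM in Flower 1, 2 and 3, and its mean of 109 FPKM in flower is at least 6285-fold higher than its level elsewhere, taken at the limit of 3 reads over the 12 other libraries together, 0.0174 FPKM. The other 2 were at 42.6, 45.8 and 46.2 FPKM and at 38.0, 50.8 and 35.2 FPKM in Flower 1, 2 and 3. Over the 16 genes, 3 reads in the 12 other libraries together would amount to 0.0107 to 0.0750 FPKM, and expression below that was not detectable at this depth. Another 17 genes had 1 to 3 reads elsewhere. For the 71 genes with more than 3, the flower mean was 28.2 to 41019 times the level pooled over the other 12 libraries, with a median of 180.4.

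The 104 genes varied more among the flower libraries than other genes of like level. Their CV had a median of 17.4%, against 8.85% for the other 11367 HannXRQ_Chr identifiers with at least 10 FPKM in flower. Among the 878 of those that limma called higher in flower than in each other tissue, the median was 12.8%. The gap held at each level. At 50 FPKM and above the median CV was 18.3% for 23 of the 104 genes and 8.20% for 2315 others, at 20 to 50 FPKM 17.3% and 8.48%, and at 10 to 20 FPKM 17.1% and 9.44%. The reads alone would give a median CV of 5.53% for the 104 genes. At 10 to 20 FPKM that CV would be 7.03% for them and 5.32% for the others. At 20 to 50 FPKM it would be 4.71% and 3.92%, and at 50 FPKM and above 2.36% and 2.37%. These are descriptions of 3 libraries, and neither the stage nor the organs in each library are given.

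Part of that spread was a low level in Flower 2, a comparison that was not among those planned. Of the 104 genes, 21 (20.2%) were at least 1.5-fold lower in Flower 2 than in the mean of Flower 1 and Flower 3, where 3.03% of all HannXRQ_Chr identifiers with at least 10 FPKM in flower were. Among the 878 others called higher in flower, 10.7% were. In the other direction, 7 of the 104 genes were at least 1.5-fold higher in Flower 2, where the share over all identifiers at that level was 2.06%, and 4.21% among the 878. Flower 1 was as far below the mean of the other flower libraries for 7 genes and as far above it for 8, and Flower 3 for 3 and 6, with shares over all identifiers of 1.46%, 1.05%, 0.976% and 0.793% in that order. In each of these directions too, the share among the 104 genes was above that over all identifiers. For Flower 1 and Flower 3 the share among the 878 was not computed. The remaining 76 genes were within 1.5-fold in Flower 2.

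Of the 21 genes low in Flower 2, 18 had Flower 1 and Flower 3 within 1.5-fold of each other, and 5 were among the 20 highest of the 104. HannXRQ_Chr09g0273611 was at 107 FPKM in Flower 2 and at 196 and 171 FPKM in Flower 1 and Flower 3. HannXRQ_Chr08g0214821 was at 108 FPKM in Flower 2 and at 161 and 172 FPKM in Flower 1 and Flower 3. HannXRQ_Chr04g0125121, the thirteenth by level, had 0.512 times the mean of the other flower libraries in Flower 2. The 2 highest genes, HannXRQ_Chr17g0559971 and HannXRQ_Chr12g0358561, had 1.02 and 1.14 times that mean in Flower 2.

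**Figure D4:**
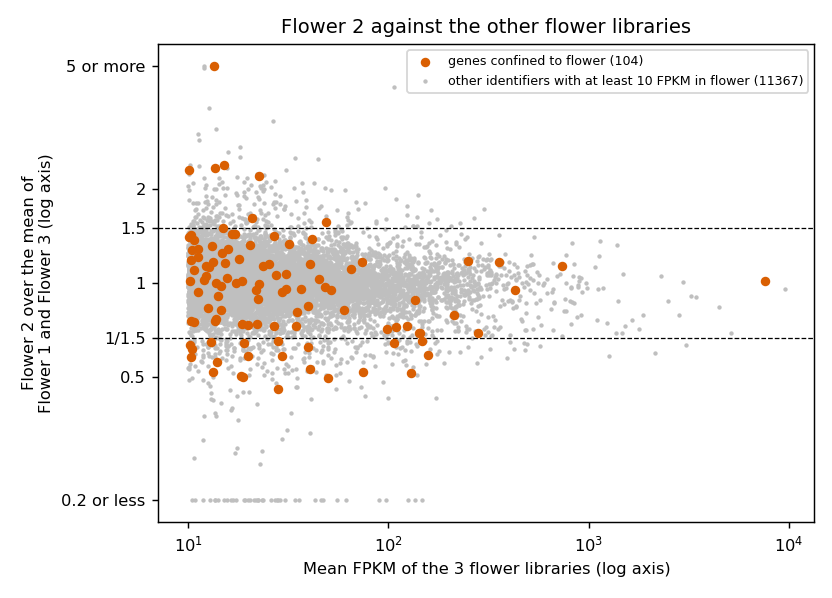
Flower 2 divided by the mean of Flower 1 and Flower 3 (log axis, with ratios beyond 0.2 and 5 drawn at those values) against the mean FPKM of the 3 flower libraries (log axis), for the 104 genes confined to flower in orange and the other 11367 HannXRQ_Chr identifiers with at least 10 FPKM in flower in grey. Dashed lines mark 1.5-fold, with 21 orange points on or under the lower line and 7 on or over the upper one.

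Some genes met the rule through part of the flower libraries. Of the 104, 2 were not taken without Flower 1, 8 without Flower 2 and 5 without Flower 3. HannXRQ_Chr07g0207201 was at 0.300, 39.8 and 0.244 FPKM in Flower 1, 2 and 3, so that 1 library made its mean of 13.5 FPKM. Without Flower 2 its mean was 0.272 FPKM, against 0.194 FPKM in its highest library elsewhere. HannXRQ_Chr09g0250911 was at 20.04, 24.7 and 0.585 FPKM in Flower 1, 2 and 3, with 0.788 FPKM in Leaf 2. HannXRQ_Chr07g0198841 was at 8.57, 22.0 and 10.3 FPKM in Flower 1, 2 and 3. At the other end, 84 of the 104 genes had at least 10 FPKM in each flower library, and 26 had a CV under 10%.

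To read the pattern in values that had not chosen the genes, the rule was applied to 14 libraries and the genes it took were read in the one left out. Without Flower 1 it took 104 genes, of which 91 (87.5%) had at least 10 FPKM in Flower 1. Without Flower 2 it took 97, of which 88 (90.7%) reached 10 FPKM in Flower 2, and the lowest was at 6.04 FPKM. Without Flower 3 it took 103, of which 91 (88.3%) reached 10 FPKM in Flower 3. The genes under 1 FPKM in the flower library left out numbered 2 in Flower 1, 0 in Flower 2 and 3 in Flower 3. How often other identifiers at that level in the remaining flower libraries reach 10 FPKM in the one left out was not computed. These shares are therefore a description and do not set the genes apart from others.

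In the libraries of the other tissues the reading asked for under 1 FPKM, so exceptions there are not counted at the limit used for flower. The genes taken that were also under 1 FPKM in such a library are the 104 by construction. Only the number and level of further genes could vary. Every gene taken without Leaf 1, Leaf 3 or Axil 2 was under 1 FPKM in that library, 104 genes each time. Without Stem 3 the rule took 120 genes, and 16 of them lay between 1 and 4.05 FPKM in Stem 3. Without Leaf 2 it took 118, and 14 of them reached at least 1 FPKM in Leaf 2, the 8 genes shared with Flower 1 among them. For the other 7 libraries it took 106 to 111 genes, and the highest level in the library left out was 3.73 FPKM, in Stem 1. That gene, HannXRQ_Chr11g0327001, was at 56.8, 0 and 0.544 FPKM in Flower 1, 2 and 3, so it too was above 1 FPKM in Flower 1 alone of the flower libraries.

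The genes were scattered over all 17 chromosomes. Chromosome 12 carried 10 of them, chromosome 7 carried 9, and chromosomes 5 and 8 carried 3 each. Per 1000 identifiers, chromosome 7 had 4.12, chromosome 6 had 3.68 and chromosome 5 had 0.857, against 1.80 over all HannXRQ_Chr identifiers. None of the 652 identifiers without a chromosome (0) was among them. The lengths implied by the steps ran from 258 to 4868 nt with a median of 1139 nt, where all HannXRQ_Chr identifiers with at least 10 FPKM in flower had a median of 1641 nt.

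Tandem copies of a gene often carry identifiers that follow each other, so the order of identifiers was examined. Identifiers were ranked by the number in them within a chromosome, and the sources used here do not say whether that number follows position along the chromosome. Of the 104 genes, 6 stood next to another of the 104, in 3 pairs, and 8 (7.69%) had another within 5 identifiers. The 104 make up 0.18% of all HannXRQ_Chr identifiers, which is a share per identifier. The 7.69% covers the 5 identifiers on each side of a gene, so these shares are not on the same base. How many pairs a random order of identifiers would give was not tested. The pair HannXRQ_Chr13g0409801 and HannXRQ_Chr13g0409811 had alike levels in flower, at 37.9, 44.6 and 39.2 FPKM and at 40.1, 35.7 and 34.4 FPKM in Flower 1, 2 and 3. So had HannXRQ_Chr04g0112191 and HannXRQ_Chr04g0112201, at 34.9, 30.3 and 39.97 FPKM and at 41.1, 35.2 and 42.5 FPKM. The remaining pair was unequal, since HannXRQ_Chr12g0358551 was at 17.96, 18.8 and 18.95 FPKM beside HannXRQ_Chr12g0358561, the second highest of all, a ratio of 39.4 between the flower means. Whether such neighbours are near-identical copies that share reads was not tested.

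The identifiers next to the 104 genes had not been chosen by their values and were tested. With limma on log2(FPKM + 1), adjusted over all 34586 genes tested, 1565 (4.52%) were higher in flower than in each of the other 4 tissues with a log2 difference of at least 1 and an adjusted p (Benjamini-Hochberg) under 0.05. Without the 104 genes the share was 4.24%, and it was 100% among the 102 of them tested, a count their choice fixes. Of 202 neighbours that are not among the 104 themselves, 122 passed the filter of at least 1 FPKM in at least 3 libraries. Of these, 6 (4.92%) were called, close to the 4.24% without the 104 genes. The 6 genes of the 104 that stand next to another were thereby left out, so the share covers only neighbours outside the 104. Within 5 identifiers on each side, 29 of 584 tested (4.97%) were called.

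**Figure D5:**
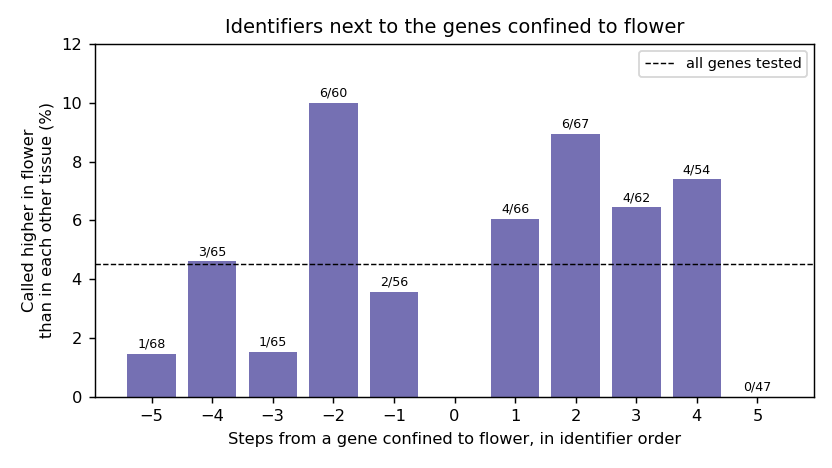
Percentage of tested identifiers called higher in flower than in each other tissue, by their distance in identifier order (up to 5 steps before and after) from the 104 genes, which are left out themselves. Numbers over the bars give called and tested identifiers, from 0 of 47 to 6 of 60. The dashed line marks the 4.52% over all genes tested, those of the 104 included (4.24% without them).

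The called neighbours included a gene far above the one it stands next to. HannXRQ_Chr07g0191671 was at 3754, 2204 and 3229 FPKM in Flower 1, 2 and 3, and at most 1.64 FPKM elsewhere, in Stem 3. Its smallest log2 difference was 10.45 ± 0.26 (SE), to stem, with a limma adjusted p of at most 9.76e-12 over the 4 comparisons. Beside it, HannXRQ_Chr07g0191661 was at 13.8, 7.36 and 10.2 FPKM in Flower 1, 2 and 3, so the neighbour's mean was 292 times as high, and both were lowest in Flower 2. In a second case the levels ran the other way. HannXRQ_Chr15g0475801 was at 37.4, 28.4 and 40.4 FPKM in Flower 1, 2 and 3 and at 5.53, 2.32 and 12.4 FPKM in Stem 1, 2 and 3, 2.44 ± 0.37 (SE) higher in flower on the log2 scale with a limma adjusted p of 0.000241, whereas HannXRQ_Chr15g0475811 beside it stood at 213 FPKM in flower. The other 4 called neighbours, HannXRQ_Chr12g0364691, HannXRQ_Chr06g0174111, HannXRQ_Chr12g0374741 and HannXRQ_Chr01g0022391, had means of 1.40 to 7.91 FPKM in flower, below those of the genes they stand next to. Log2 differences on this scale understate the change of low genes.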

How the data were processed

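The authors deposited FPKM per library and a mean per tissue. The submitters' processing notes list HTSeq 0.6.1, and the sources used here name no aligner, genome build or annotation. Oligo(dT) beads captured the mRNA, per the labels' protocols. A further 19 unnamed columns were not used.

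Whole reads, library totals and gene lengths were solved from the steps between FPKM values, with a tolerance of 1e-05 reads. Implied lengths were whole within 0.05 nt for 99.9976% of 41460 genes. A common factor in all reads of a gene cannot be seen, so reads are the smallest that give a whole length. The procedure and the limma fit were tested on simulated data. Replicates differed beyond sampling noise in every pair (chi-square over its degrees of freedom, 9.58 to 66.1).

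Neighbours were tested with limma 3.58.1 (R 4.3.3, trended eBayes) on log2(FPKM + 1) of all 15 libraries. Of the 104 genes, 102 passed its filter, and no test of them is given. The members, lists and settings were chosen with earlier results of these data known. Named genes were taken by rank (highest, no read elsewhere, lowest, nearest the limits, most variable, adjacent). Lists of floral genes matched 0 identifiers and were not analysed here. Python 3.11.15 ran the remaining steps, with pandas 2.3.3, numpy 2.4.6 and, for figures, matplotlib 3.10.9.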

Additional observations from a re-analysis of the deposited data

Results flagged for a closer look

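The 104 genes were limited to identifiers with the prefix HannXRQ_Chr. Outside that class, 5 identifiers met the same values in flower and elsewhere, a signal in rows that the comparisons above do not use. Novel00789 was at 287, 218 and 215 FPKM in Flower 1, 2 and 3 (mean 240.3), with no read in the other 12 libraries. Novel00148 had a mean of 40.1 FPKM in flower and at most 0.102 FPKM elsewhere. Novel01753 had a mean of 12.4 FPKM in flower and no read elsewhere. ENSRNA050003533, at an implied 105 nt, had a mean of 12.3 FPKM in flower and 1 read elsewhere. ENSRNA050004476, at an implied 53 nt, was at 38.1, 0 and 0 FPKM in Flower 1, 2 and 3 (mean 12.7) and rests on 26 reads of Flower 1.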

How the results depend on the processing

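Moving the limits of the rule moved the number of genes by construction: 160 genes with a flower mean of at least 5 FPKM, 53 with at least 20 FPKM, 66 with under 0.5 FPKM elsewhere and 160 with under 2 FPKM elsewhere, against 104. Requiring 10 FPKM in each flower library gave 84, median-of-ratios scaling gave 104, and taking every identifier gave 109. Leaving out 1 library gave 97 to 120 genes, and leaving out Leaf 2 and Stem 3 together, an alternative chosen after the data were seen like that without Flower 1 and Leaf 2, gave 138. The 2120 reads outside flower were 1877 to 2022 with 1 of the 12 libraries left out. Of 30 named genes, the flower mean of HannXRQ_Chr07g0207201 alone fell by over 1.5 times when a flower library was left out. A rise by over 1.5 times is not possible with 1 of 3 libraries left out. The mean of HannXRQ_Chr09g0250911 rose from 15.1 to 22.4 FPKM without Flower 3. The 6 called neighbours (4.92%, against 4.52% of all genes tested) became 3 with a pseudocount of 5 (2.46%, against 2.75%), 3 of 84 tested with a filter at 5 FPKM (3.57%, against 5.06%), 10 with adjusted p alone (8.2%, against 7.04%) and 29 of 584 with 5 identifiers on each side (4.97%, against 4.52%). They numbered 5 to 7 with 1 library left out and 6 with a replicate block. The shares of all genes tested given here include those of the 104, whereas the neighbours do not. Numbers shared between tissues were not used to pair the libraries in the main fit. Deviations of same-numbered ones correlated at a median of -0.0334 over 30 pairs (range -0.337 to 0.196). These correlations cannot show whether same-numbered libraries came from 1 plant, and the labels do not say. On a gene of 258 nt, the shortest of the 104, 3 reads are worth more than on 1000 nt, so the limit of 1 FPKM rests on few reads there.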

Other observations

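Genes that a single other library kept out of the 104 were looked at after that library had been seen to matter. Stem 3 kept out 16, all of them under 1 FPKM in the other 11 libraries outside flower. The highest in flower was HannXRQ_Chr15g0490611, at 186, 129 and 211 FPKM in Flower 1, 2 and 3 and 2.17 FPKM in Stem 3. HannXRQ_Chr05g0144861 was at 149, 131 and 105 FPKM in Flower 1, 2 and 3 and 1.54 FPKM in Stem 3. HannXRQ_Chr13g0409021 was at 122, 132 and 104 FPKM in Flower 1, 2 and 3 and 3.90 FPKM in Stem 3. Of the 8 genes shared by Flower 1 and Leaf 2, HannXRQ_Chr07g0201041 was at 166, 0.263 and 0.0523 FPKM in Flower 1, 2 and 3 and at 511 FPKM in Leaf 2. HannXRQ_Chr01g0013351 was at 375, 0.395 and 0 FPKM in Flower 1, 2 and 3 and at 66.0 FPKM in Leaf 2. HannXRQ_Chr00c0313g0573461 and HannXRQ_Chr00c0313g0573471, with consecutive numbers and no chromosome, were at 82.0 and 40.4 FPKM in Flower 1 and at 71.8 and 47.5 FPKM in Leaf 2.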
